A study of Homo sapiens with 8 samples.

Results

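The superfamily of miR-15/16, miR-103 and miR-107 was described in INA-6 cells, a human multiple myeloma line that depends on interleukin 6 and was cultured with it, after treatment with UNC1999, an inhibitor of the histone H3K27 methyltransferases EZH2 and EZH1. Members were chosen by name: the 9 mature miRNAs hsa-miR-15a-5p, hsa-miR-15b-5p, hsa-miR-16-5p, hsa-miR-195-5p, hsa-miR-497-5p, hsa-miR-424-5p, hsa-miR-503-5p, hsa-miR-103a-3p and hsa-miR-107, of 2549 human miRNAs on the array. Mature miRNAs were measured on 8 single-colour arrays, 4 from cells given DMSO and 4 from cells given 1 μM UNC1999 for 120 h, with reagents renewed at 72 h. The sample titles and the paper give DMSO as the control of the miRNA arrays, and the groups follow them, although the treatment text of the labels names 1 μM of UNC2400, an inactive analogue. All 8 arrays came from a single cell line, so the comparison holds for INA-6 only.

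MicroRNAs are short RNAs that guide Argonaute proteins to messenger RNAs, mainly by pairing of the seed, the bases near their 5′ end. The miR-15/16 family is known for restraining cell cycle and survival genes such as CCND1, CCNE1 and BCL2, and its MIR15A and MIR16-1 genes lie in the region of chromosome 13 that is often lost in chronic lymphocytic leukaemia and myeloma. miR-103 and miR-107 lie in introns of the pantothenate kinase genes and are known for targeting DICER1 and regulators of insulin signalling.

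The sequences show why the 9 are treated together and where they differ. Mature sequences are from RefSeq (GRCh38.p14), written 5′ to 3′, and capitals mark the seed, bases 2 to 8.
miR-15a-5p: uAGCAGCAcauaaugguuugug
miR-15b-5p: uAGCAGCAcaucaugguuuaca
miR-16-5p: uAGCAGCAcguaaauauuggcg
miR-195-5p: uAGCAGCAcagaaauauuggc
miR-497-5p: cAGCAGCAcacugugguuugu
miR-424-5p: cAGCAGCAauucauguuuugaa
miR-503-5p: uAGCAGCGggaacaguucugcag
miR-103a-3p: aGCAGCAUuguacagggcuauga
miR-107: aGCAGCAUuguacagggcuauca
The first 6 share the seed AGCAGCA. miR-503-5p departs from it in the last base, AGCAGCG, and miR-103a-3p and miR-107 share GCAGCAU, the same core moved by 1 base. Counted from the 5′ end, miR-103a-3p and miR-107 differ only by G22C. miR-15a-5p differs from miR-15b-5p by A12C, G20A, U21C and G22A, all outside the seed. The core AGCAGC beginning at base 1 or 2 was found in 11 of 2370 reference mature miRNAs (0.464%), the 9 members and miR-646 and miR-6838-5p. Those last 2 were on the array and were detected on none of the 8 arrays.

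The members come from 7 places in the genome, given here in GRCh38.p14. MIR15A (mature arm at chr13:50049167-50049188) and MIR16-1 lie on the minus strand within DLEU2, a non-coding host gene, with 57 bases between the hairpins. MIR15B (chr3:160404607-160404628) and MIR16-2 lie on the plus strand within SMC4, a condensin subunit gene, 59 bases apart. MIR195 and MIR497 lie within MIR497HG on chromosome 17, and MIR424 (chrX:134546680-134546701) and MIR503 lie 215 bases apart on chromosome X. MIR103A1, MIR103A2 and MIR107 lie within PANK3 on chromosome 5, PANK2 on chromosome 20 and PANK1 on chromosome 10. miR-16-5p and miR-103a-3p are each made from 2 hairpins of identical mature sequence, so their signal cannot be assigned to a locus.

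Before scaling, the arrays differed in brightness in the same direction as the treatment. The 75th percentile of the intensities over the 346 miRNAs detected on all 8 arrays was 296 to 559 on the DMSO arrays and 534 to 729 on the UNC1999 arrays, and 369 to 484 against 474 to 500 human miRNAs were detected. DMSO replicates 1 and 4 (482 and 484 detected) stood apart from DMSO replicates 2 and 3 (369 and 370). Each array was divided by its own 75th percentile, so a log2 scaled signal is a level relative to the other miRNAs of that array, not an amount per cell. Of the cell type markers listed, the blood cell miR-142-3p and the lymphocyte miR-150-5p were detected on all 8 arrays, the B-lineage miR-155-5p on 2 of 8, and 8 listed markers of liver, muscle, epithelium, fibroblasts and endothelium on none. Of the neuronal markers miR-9-5p was detected on all 8 and miR-124-3p on none. At the main scaling 4 of the 5 markers tested were called lower with UNC1999, as the members were: the log2 fold change was -0.52 for miR-142-3p, -0.36 for miR-142-5p, -0.56 for miR-150-5p and -0.88 for miR-9-5p. miR-223-3p, abundant in myeloid cells, was detected on all 8 arrays and called higher, at 1.18. The part of these markers in the results was not tested.

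Relative to the other miRNAs of the array, the 7 members that could be measured fell by 0.41 to 0.76 on the log2 scale after UNC1999. On a linear scale miR-503-5p fell by 24.6% and miR-15b-5p fell by 40.9%. At the main setting miR-15b-5p and miR-103a-3p showed the largest differences and miR-503-5p the smallest, an order that changed with the processing: in the authors' processed values miR-503-5p was at -0.73 and miR-15b-5p at -0.39, and after quantile normalization miR-16-5p was the smallest. miR-195-5p and miR-497-5p were detected on no array. Before scaling, the 7 members' signals differed little between the groups, while the signal of the median miRNA rose, so the call of a fall depends on the scaling. In these bulk samples fewer cells making a miRNA and less of it per cell cannot be told apart.

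At the MIR15A and MIR16-1 locus, the log2 scaled signal of miR-15a-5p was 9.66, 9.46, 9.37 and 9.73 on DMSO replicates 1 to 4 and 9.23, 8.92, 9.0 and 8.99 on UNC1999 replicates 1 to 4. The groups did not overlap, and the nearest pair of arrays was DMSO replicate 3 and UNC1999 replicate 1. The difference was -0.52 (SE 0.12, n = 4 per group, limma adjusted p = 0.00308).

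miR-16-5p, which is also made from MIR16-2, had log2 scaled signals of 12.74, 12.47, 12.39 and 12.79 with DMSO and 12.22, 12.04, 11.98 and 11.90 with UNC1999. Every UNC1999 array lay below every DMSO array, by a difference of -0.56 (SE 0.12, limma adjusted p = 0.00271). This call was lost after quantile normalization (-0.097, limma adjusted p = 0.29) and in the authors' processed values (-0.15, limma adjusted p = 0.17). Its intensities before scaling were 6260, 3833, 3069 and 7637 with DMSO and 6313, 5751, 5688 and 3950 with UNC1999. Those ranges overlap, and the 2 DMSO arrays with fewer miRNAs detected were the dimmest of the 8.

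From the MIR15B locus, miR-15b-5p had log2 scaled signals of 12.66, 12.40, 12.27 and 12.71 with DMSO and 12.04, 11.74, 11.73 and 11.49 with UNC1999. UNC1999 replicate 4 was the lowest and replicate 1 the highest of the treated arrays, and none reached the DMSO range. The difference was -0.76 (SE 0.14, limma adjusted p = 0.00132).

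The X-linked pair was dimmer. miR-424-5p, known in myeloid differentiation and in the response to low oxygen, had log2 scaled signals of 7.93, 7.53, 7.49 and 7.88 with DMSO and 7.43, 6.95, 7.20 and 7.14 with UNC1999, a difference of -0.53 (SE 0.14, limma adjusted p = 0.00791). Its groups were separated by less than the spread within either of them.

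miR-503-5p, the member with the altered seed, had log2 scaled signals of 5.68, 5.77, 5.81 and 5.82 with DMSO and 5.38, 5.67, 5.06 and 5.34 with UNC1999. Its groups were parted by only 0.0061, between DMSO replicate 1 and UNC1999 replicate 2. The difference was -0.41 (SE 0.13, limma adjusted p = 0.0164). It was -0.36 with an adjusted p of 0.063 in limma without DMSO replicates 2 and 3, and miR-424-5p was at -0.33 with an adjusted p of 0.056 without DMSO replicates 1 and 4. With no filter on detection neither was called (limma adjusted p = 0.14 for miR-503-5p and 0.11 for miR-424-5p).

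miR-103a-3p had log2 scaled signals of 11.07, 10.98, 10.85 and 11.11 with DMSO and 10.46, 10.26, 10.26 and 10.06 with UNC1999, a difference of -0.74 (SE 0.11, limma adjusted p = 4.6e-04). The gap between the groups was wider than the SD of either. miR-107, which differs from it by 1 base, had 9.96, 9.87, 9.77 and 9.94 with DMSO and 9.47, 9.32, 9.22 and 9.15 with UNC1999, a difference of -0.60 (SE 0.10, limma adjusted p = 8.7e-04). How far the probes of one of them also read the other cannot be told from these arrays.

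miR-195-5p, whose sequence departs from that of miR-16-5p by G10A and U11G and lacks the final base, gave scaled signals of 9.6, 4.4, -1.7 and 8.4 with DMSO and 7.9, 4.1, 4.6 and 4.4 with UNC1999. Only 1 of the 8 passed the floor of 8.98, the lowest level at which a miRNA was typically detected, although miR-16-5p was bright on the same arrays. miR-497-5p, its neighbour 209 bases away, lay between -3.4 and 1.51 on the 8 arrays. No fold was computed for either.

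**Figure D1:**
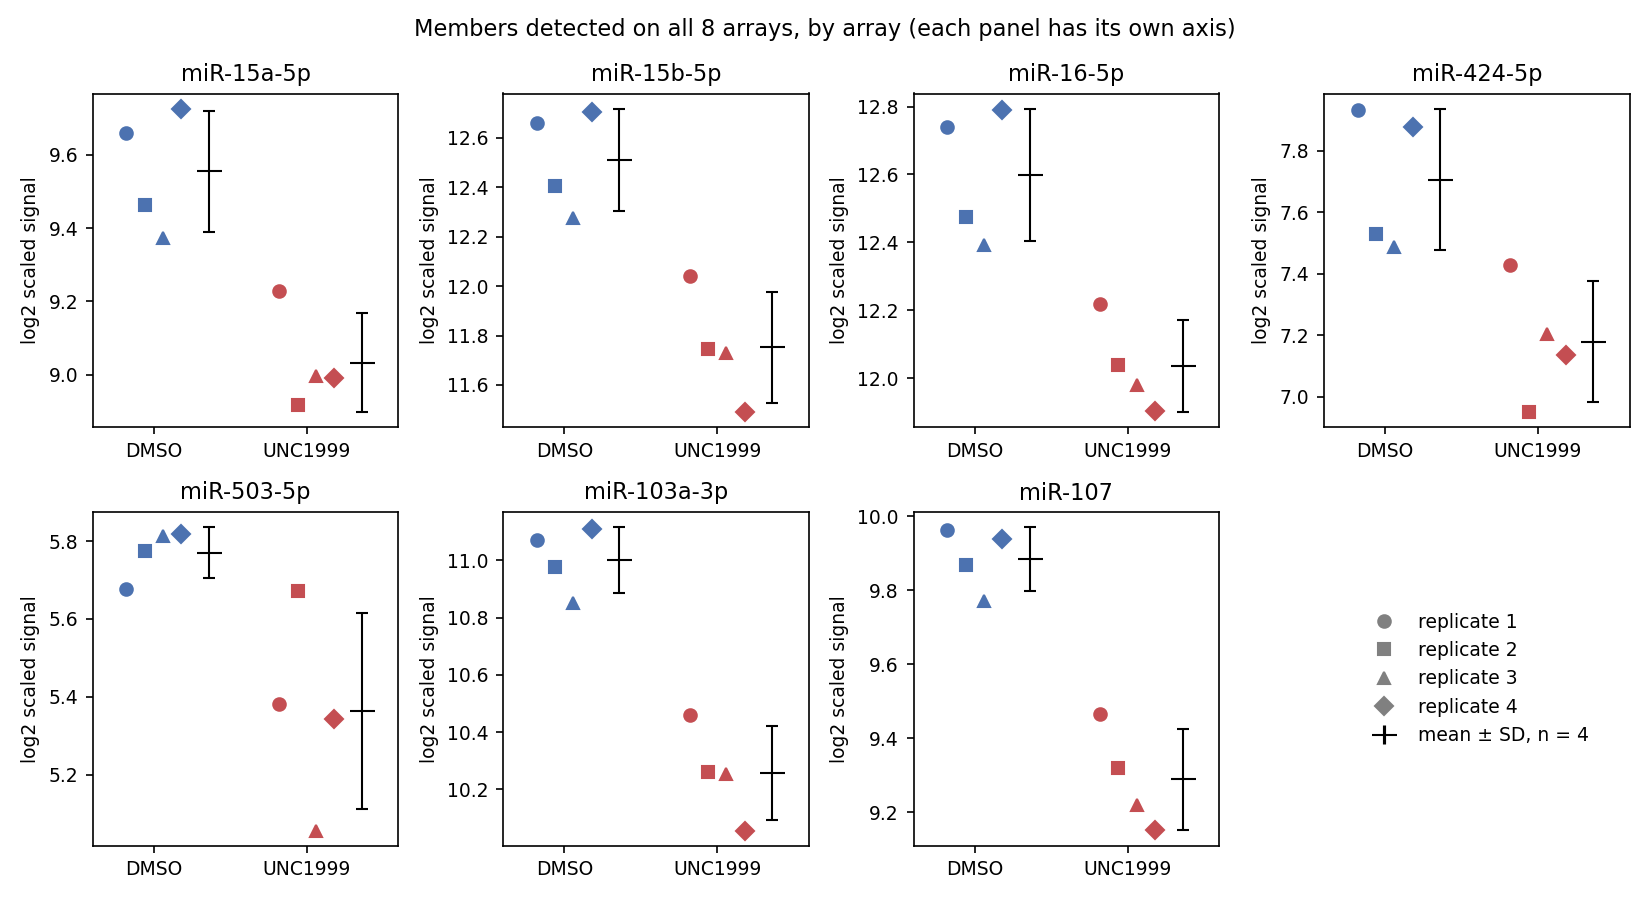
Log2 scaled signal (vertical axis, one scale per panel) of the 7 members detected on all 8 arrays, DMSO in blue and UNC1999 in red, with a symbol for each replicate and the mean ± SD beside each group. The groups do not overlap in any panel, and in the panel of miR-503-5p UNC1999 replicate 2 lies just under DMSO replicate 1.

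All 7 members that passed the filter, of 9 members, were called lower, a call being a change of 1.2-fold or more with an adjusted p no higher than 0.05. Calls were common on these arrays: of 456 human miRNAs tested, 70.6% were called, 34.6% lower and 36% higher. The members' groups did not overlap for 7 of 7, against 65.4% of all miRNAs tested and 32.7% with the lower values under UNC1999. Their median log2 fold change was -0.56, that of all 456 was 0.011, and 49.6% of the 456 lay below 0. Ranked from the largest fall, miR-15b-5p stood 54th, miR-103a-3p 57th and miR-503-5p 138th of 456, so that 11.6% to 30.0% of the tested miRNAs fell further than a given member. Among the 114 brightest miRNAs tested, which held 5 of the members, 40.4% were called lower.

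**Figure D2:**
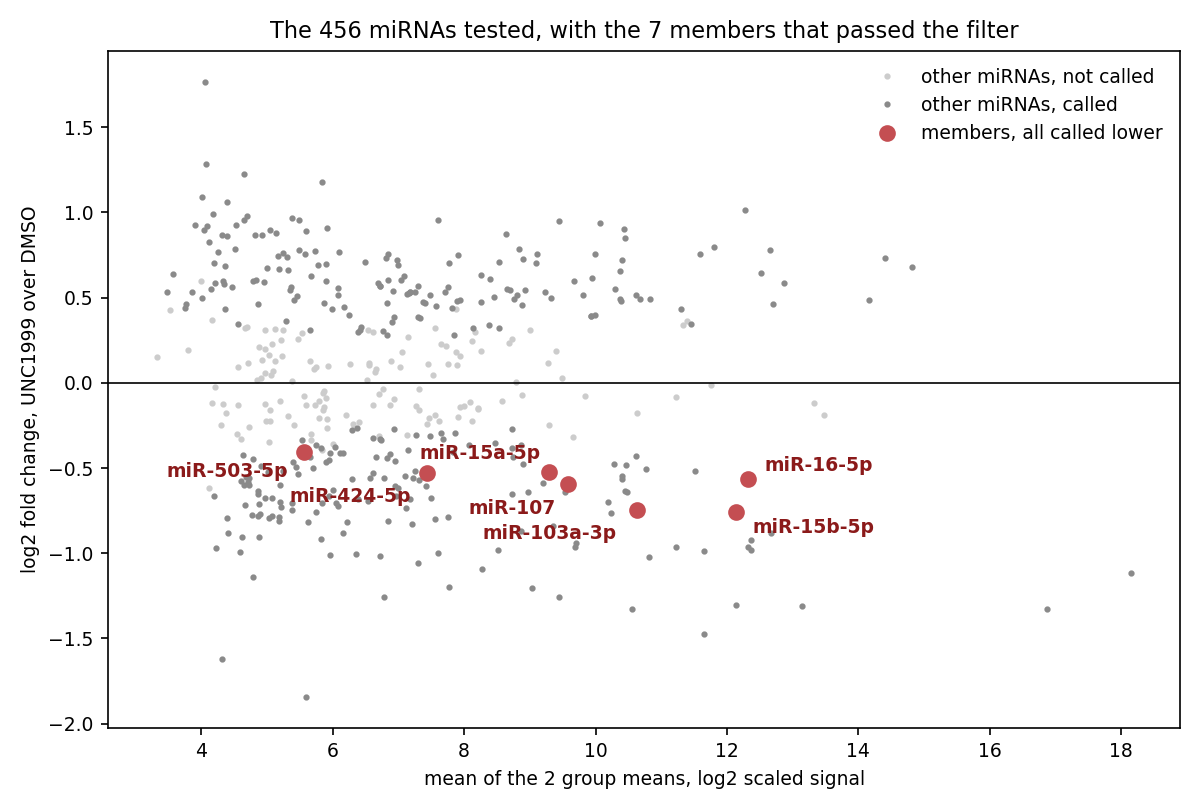
Log2 fold change of UNC1999 over DMSO (vertical axis) against the mean log2 scaled signal (horizontal axis) for the 456 miRNAs tested, with called miRNAs in dark grey, the others in light grey and the members in red. The 7 members lie between -0.76 and -0.41 at the main scaling, inside the cloud of the other called miRNAs; without scaling or with spike-ins none of them is called.

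The position on the slide followed the groups in part, with 3 DMSO arrays and 1 UNC1999 array in row 1 of the slide and the reverse in row 2. Within row 1 the 7 members differed by -1.10 to -0.41 and within row 2 by -0.53 to -0.29. These had to be below 0, because the groups of the 7 members do not overlap, so their sign says nothing about the position. Each row also holds only 1 array of one of the groups. With the row as a block 7 were called. In 6 of 7 members DMSO replicates 1 and 4 were the brightest controls, and in 6 of 7 UNC1999 replicate 1 was the brightest treated array. The 21 pairs of members correlated over the 8 arrays with r from 0.50 (miR-424-5p and miR-503-5p) to 0.995 (miR-103a-3p and miR-107), as a description of points that share arrays, scaling and the difference between groups.

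The direction of the members rested on the scaling. Without any scaling their log2 fold changes were 0.18 for miR-15a-5p, -0.062 for miR-15b-5p, 0.13 for miR-16-5p, 0.17 for miR-424-5p, 0.29 for miR-503-5p, -0.046 for miR-103a-3p and 0.10 for miR-107, and none was called. The median of the miRNAs tested was then 0.67. Scaled to the labelling spike-ins, RNAs added to each sample in equal amount, the members lay between 0.064 and 0.42 and the median at 0.79, again with 0 members called lower or higher. A single factor per array moves all miRNAs together, so the gap between a member and the median miRNA hardly depends on it. Quantile normalization is not a single factor. It narrowed the gap from -0.57 to -0.20 for miR-16-5p and from -0.77 to -0.51 for miR-15b-5p. For miR-15a-5p, miR-424-5p, miR-503-5p, miR-103a-3p and miR-107 the gap widened slightly. Another background correction, normexp, changed the gap as well. At the main setting the members lay 0.42 to 0.77 below the median on the log2 scale. The normexp setting added an offset of 50 to each spot before scaling, which weighs most on dim miRNAs. Its median was -0.32, from which miR-16-5p differed by -0.014, miR-15a-5p by -0.023, miR-107 by -0.071 and miR-424-5p by -0.081. The part of the offset in these smaller gaps was not tested. In the authors' processed values miR-16-5p differed by -0.33 from the median of the 456 miRNAs tested. It differed by -0.057 from the median of all 2031 features, which include those that missed the filter. All 7 members lay below the median of their setting in each of 26 alternatives, a count not planned beforehand, though for some by little, as with normexp. Several of these alternatives change only the test or a single factor per array, which hardly moves the gap. They are therefore not separate checks. A lower amount was not shown.

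**Figure D3:**
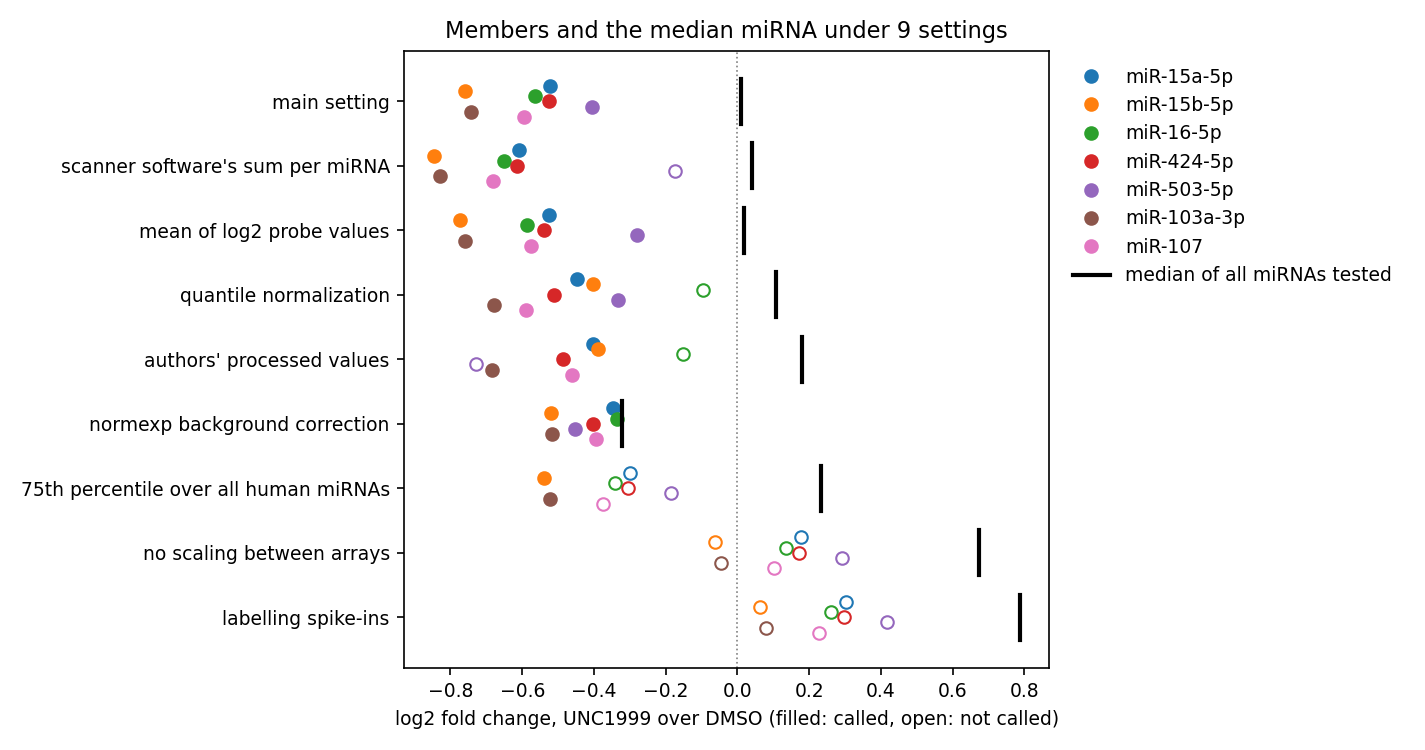
Log2 fold change of each member (coloured points, filled where called) and the median of all miRNAs tested (black bars) under the main setting and 8 alternatives. The members lie to the left of the median, though by only 0.014 for miR-16-5p and 0.023 for miR-15a-5p with normexp, which adds an offset of 50 per spot. They lie above 0 for 5 of 7 members without scaling and for 7 of 7 with the labelling spike-ins.

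A ratio of 2 members within an array does not change when an array is scaled by a single factor. Of 8 pairs planned, 6 had both members detected, and p-values were adjusted over these 6. The log2 ratio of miR-15b-5p to miR-16-5p was -0.087 ± 0.020 with DMSO and -0.28 ± 0.10 with UNC1999 (SD, n = 4, difference -0.20, two-sided exact permutation p = 0.029, adjusted p = 0.043). An exact p of 0.029 is the smallest that 4 against 4 arrays allow. The ratio was lower on every UNC1999 array than on any DMSO array. Probes of the same miRNA also differed: those of miR-15b-5p gave -0.72 and -0.82, and those of miR-16-5p gave -0.63 and -0.54. Whether the 2 miRNAs changed unequally beyond this spread between probes was not tested.

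miR-103a-3p to miR-107 gave a log2 ratio of 1.11, 1.11, 1.08 and 1.17 with DMSO and 0.99, 0.94, 1.03 and 0.91 with UNC1999, a difference of -0.15 (exact permutation p = 0.029, adjusted p = 0.043). The ratio was thus lower on the 4 treated arrays for this pair as well, even though its members differ by 1 base. miR-16-5p to miR-103a-3p was higher with UNC1999 by 0.18 (exact permutation p = 0.029, adjusted p = 0.043).

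For the clustered pair miR-15a-5p and miR-16-5p the ratio differed by 0.042 with overlapping groups (exact permutation p = 0.49). Its direction turned after quantile normalization (-0.35) and in the authors' processed values, where it passed the threshold (-0.25, exact permutation test, adjusted p = 0.043). For miR-424-5p and miR-503-5p the ratio differed by -0.12, with overlapping groups (exact permutation p = 0.63). miR-15a-5p to miR-15b-5p was higher by 0.24 with UNC1999 (exact permutation p = 0.029, adjusted p = 0.043), but this ratio was -0.044 after quantile normalization and -0.016 in the authors' processed values. The count of ratios past the threshold was 4 at the main setting and 0 under quantile normalization or normexp background correction. With 6 pairs, a pair can pass only where at least 4 reach the smallest p, so the loss of these calls says little about the sizes. After quantile normalization miR-15b-5p to miR-16-5p was at -0.31 and miR-16-5p to miR-103a-3p at 0.58, both larger than at the main setting. Both hold miR-16-5p. The ratio of miR-103a-3p to miR-107 was smaller there, at -0.087, and that of miR-15a-5p to miR-15b-5p turned, as given above.

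**Figure D4:**
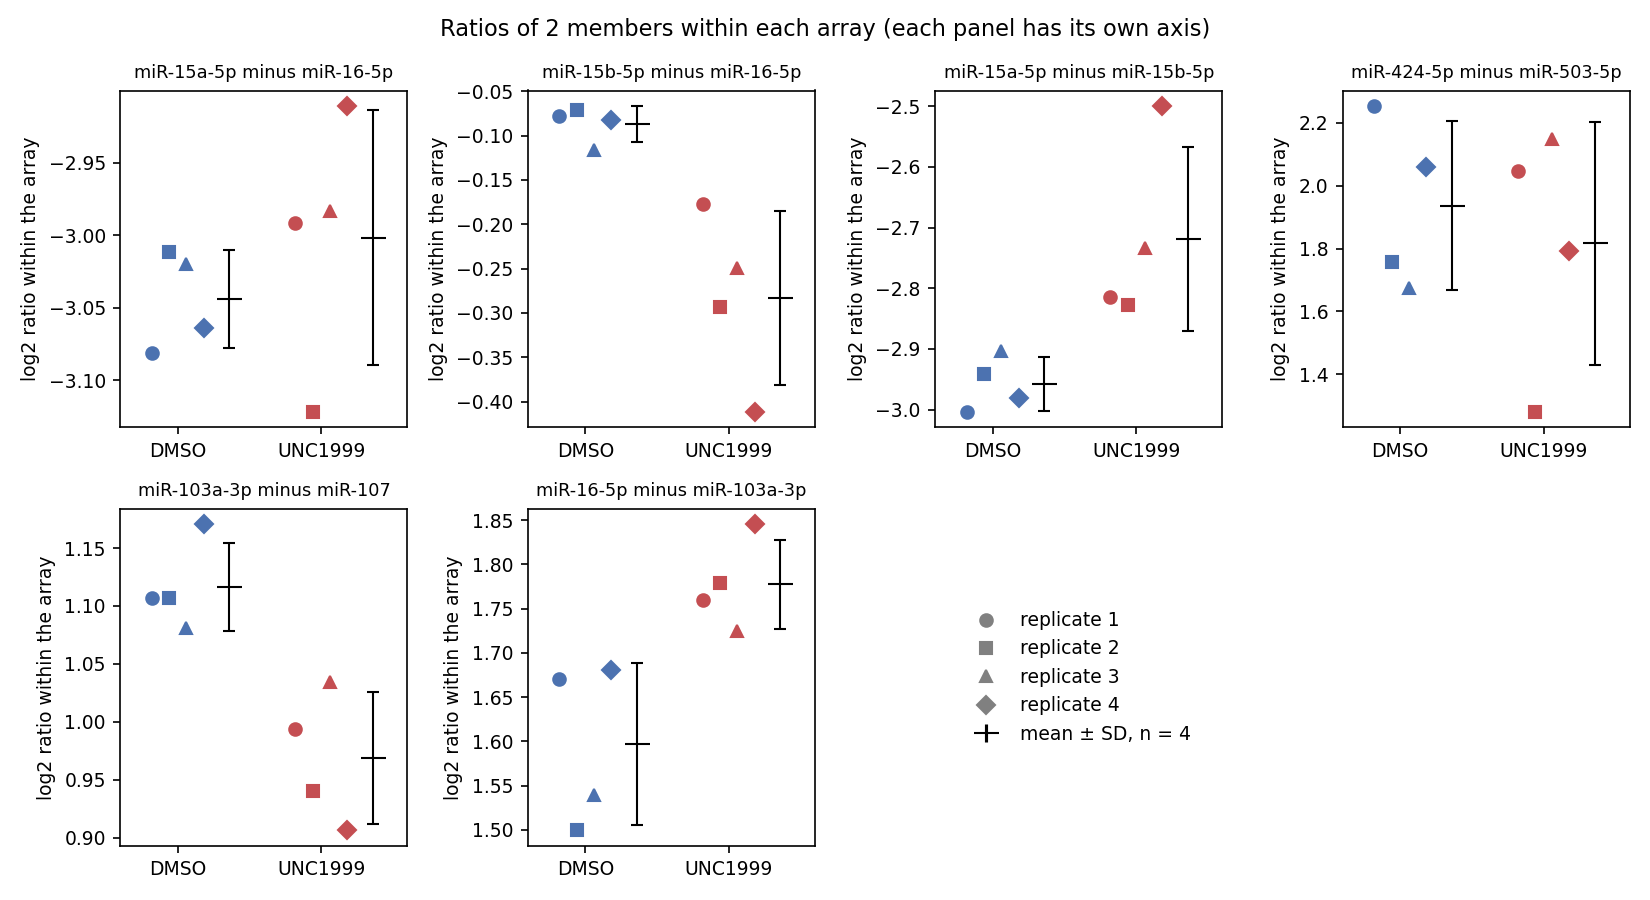
Log2 ratio of 2 members within each array (vertical axis, one scale per panel) for 6 pairs, DMSO in blue and UNC1999 in red, with a symbol for each replicate and the mean ± SD beside each group. The groups are apart for 4 pairs and overlap for miR-15a-5p minus miR-16-5p and miR-424-5p minus miR-503-5p.

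Each miRNA is read by several probes. Of 15 probes of the 7 detected members, 14 were above the floor on all arrays, and all 14 were lower with UNC1999 at the main scaling, by 0.40 to 0.82 on the log2 scale. In 12 of them the groups did not overlap. The share over all probes on the array was not counted. Among the miRNAs tested it was 65.4%, and 32.7% with the lower values under UNC1999. These probes are summed into the members' values above, so they are not separate evidence. The probes with overlapping groups were both of miR-503-5p (exact permutation p = 0.11 and 0.057).

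The other arms of the same hairpins and the neighbouring miRNAs were mostly out of range. Of 17 on the array, 5 were detected on any array and 2 passed the filter. Those 2 are shown with capitals at the seed, which neither shares with the members.
miR-16-2-3p: cCAAUAUUacugugcugcuuua
miR-424-3p: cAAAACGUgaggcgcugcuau
miR-16-2-3p, the opposite arm of the MIR16-2 hairpin, marks that locus. Its scaled signals were 38.3, 28.2, 49.3 and 38.4 with DMSO and 27.2, 16.2, 26.6 and 24.2 with UNC1999, lower by a log2 difference of -0.71 (SE 0.20, limma adjusted p = 0.00990). This rested on 1 of its 4 probes, the others being under the floor. With the log2 probe values averaged, where the floored probes count as unchanged, it was -0.22 (limma adjusted p = 0.028). That missed the fold threshold only. It was also not called with no filter on detection (limma adjusted p = 0.17).

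miR-424-3p is the partner arm of miR-424-5p. Its scaled signals were 16.6, 11.4, 11.2 and 20.9 with DMSO, detected on 2 of 4 arrays, and 24.5, 41.3, 22.9 and 35.8 with UNC1999, detected on 4 of 4. The log2 difference of 1.06 is a description only, because the miRNA passed the filter through the group where it was high. It rested on 1 of 2 probes and missed the threshold without the detection filter (limma adjusted p = 0.11). After normexp background correction the difference was -0.28, near that setting's median of -0.32. The offset of 50 added to each spot there exceeds most of this miRNA's signals before scaling, so that value cannot settle the direction. Within the array, the log2 ratio of miR-424-3p to miR-424-5p was -3.88, -4.03, -4.00 and -3.49 with DMSO and -2.81, -1.58, -2.69 and -1.97 with UNC1999. This ratio was chosen after its values were seen and was not tested.

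miR-15a-3p, the arm that marks the MIR15A hairpin, was detected on 6 of 8 arrays and so missed the filter. Its scaled signals were 28.3, 32.4, 29.7 and 31.2 with DMSO and 18.8, 16.9, 16.2 and 14.3 with UNC1999. miR-15b-3p was detected on 2 of 8, with 24.5, 20.4, 26.7 and 20.6 against 15.9, 9.8, 14.3 and 16.7. In both the groups did not overlap at the main scaling, with the lower values under UNC1999. That held for 32.7% of the miRNAs tested, to which these arms do not belong. Before scaling they overlapped: miR-15a-3p ran from 17.0 to 33.7 with DMSO and 14.7 to 24.9 with UNC1999. miR-15b-3p ran from 13.7 to 22.4 and from 13.4 to 21.1, and was detected on no UNC1999 array. No test was made because neither arm passed the filter.

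**Figure D5:**
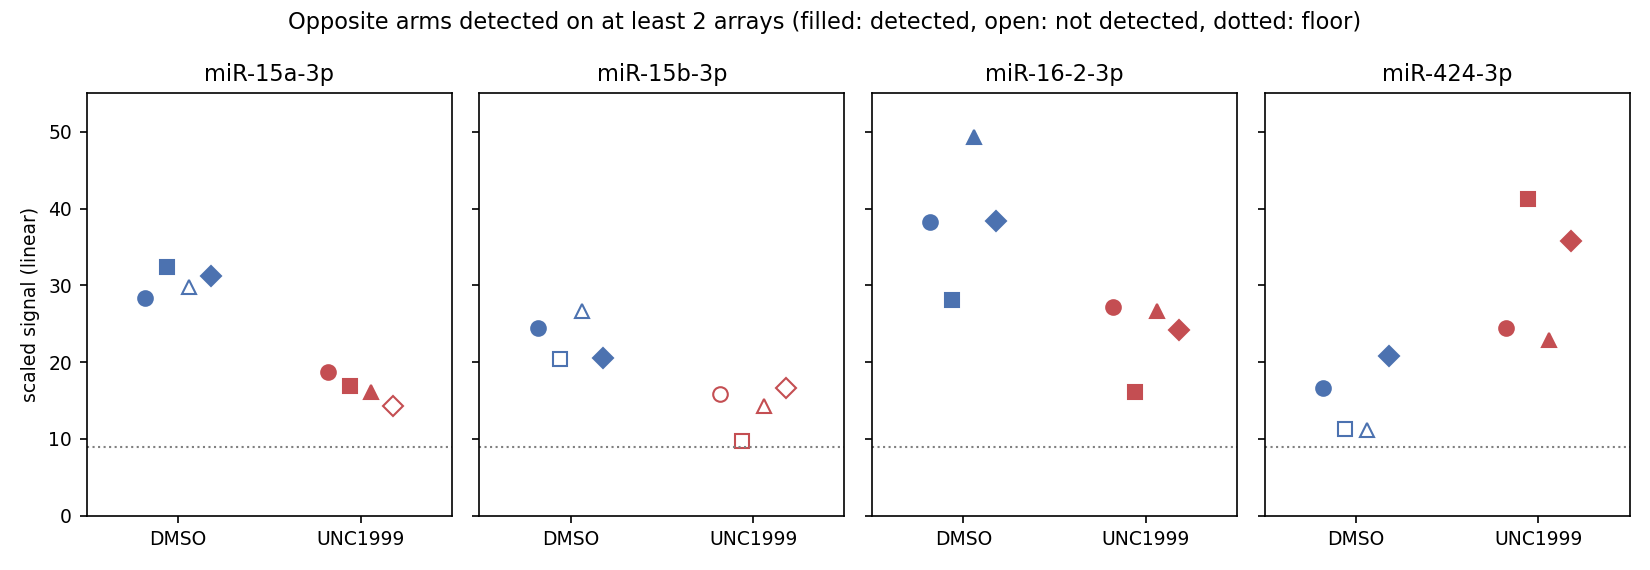
Scaled signal on a linear axis of the 4 opposite arms that were detected on at least 2 arrays, filled where detected and open where not, with the floor of 8.98 dotted. At the main scaling miR-15a-3p, miR-15b-3p and miR-16-2-3p sit lower with UNC1999 and miR-424-3p higher. With normexp and its offset of 50 per spot miR-424-3p is at -0.28, and with the labelling spike-ins miR-16-2-3p is at 0.11.

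As a description over 8 arrays and 339 miRNAs compared, the patterns most like that of miR-16-5p were let-7c-5p (Pearson r = 0.998), miR-29a-3p (0.992) and miR-130b-3p (0.989). Those most like miR-103a-3p were miR-20b-5p (0.997), miR-17-5p (0.996) and miR-361-5p (0.995). These points share arrays, scaling and the difference between the groups.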

How the data were processed

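The authors deposited, for each array (SurePrint human miRNA, all on 1 slide), the output of Agilent Feature Extraction 10.7.3.1 with a background-subtracted intensity per spot, and a table of log2 values that were quantile normalized. The members and lists were chosen with earlier results of these data known. Spot intensities without outlier spots (2 to 10 of 180 member spots per array, 0 saturated) were averaged per probe and summed per miRNA, scaled to the array's 75th percentile (taken from 346 miRNAs with detection on every array), raised to a floor of 8.98 and taken to log2. The floor understates changes of dim miRNAs. The filter kept 456 miRNAs with detection on each of the 4 arrays in 1 group or both, and these entered limma 3.58.1 (lmFit, eBayes; R 4.3.3) and adjusted by Benjamini-Hochberg over all 456, without a block. Single values were compared by two-sided exact permutation over arrays (scipy 1.17.1). Named miRNAs are the members, their opposite arms, neighbours and seed relatives, and the 3 most correlated with miR-16-5p and with miR-103a-3p. Steps were tested on simulated data, where changes were recovered on average. Percentile scaling shifted all miRNAs of a single simulated set together by chance, an error that the SE and p-values do not hold. The simulated arrays differed in brightness regardless of their group, whereas here the brightness followed the treatment. Recovery in the simulation does not bear on that difference. The titles call the replicates biological; p-values measure the spread between these arrays. The number of arrays limits the precision.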

Additional observations from a re-analysis of the deposited data

How the results depend on the processing

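Of 29 alternatives, 4 moved the count of members called lower from 7 by more than 1.5 times: it was 2 when the 75th percentile was taken from all human miRNAs, 0 with no scaling, 0 with the labelling spike-ins, and 2 in the authors' processed values with every feature adjusted over. No member was called higher under any of the 29. With no scaling, miR-15a-5p was at 0.18, miR-16-5p at 0.13, miR-424-5p at 0.17, miR-503-5p at 0.29 and miR-107 at 0.10. With the labelling spike-ins, miR-15a-5p was at 0.30, miR-15b-5p at 0.064, miR-16-5p at 0.26, miR-424-5p at 0.30, miR-503-5p at 0.42, miR-103a-3p at 0.080, miR-107 at 0.23 and miR-16-2-3p at 0.11. miR-424-3p was at -0.28 with normexp, which adds an offset of 50 to each spot. Over all 456 miRNAs the calls split into 164 higher and 158 lower at the main setting, 54 and 250 with normexp, 192 and 88 with the percentile over all human miRNAs, 234 and 4 with no scaling, and 299 and 7 with the spike-ins. miR-16-5p was not called after quantile normalization (-0.097) or in the authors' processed values (-0.15), miR-503-5p not with the scanner software's sum (-0.17) or in the authors' processed values (-0.73, limma adjusted p = 0.15), and miR-424-5p and miR-503-5p not with no filter on detection. The number of within-array ratios past the threshold was 0 with normexp and 0 with quantile normalization. The ratio of miR-15a-5p to miR-16-5p was -0.0094 with normexp, -0.35 with quantile normalization and -0.25 in the authors' values, where it passed the threshold, that of miR-15a-5p to miR-15b-5p -0.044 and -0.016 in the last 2, and that of miR-424-5p to miR-503-5p 0.048 with normexp and 0.24 in the authors' values. The cause was not tested.

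The methods name a moderated t-test for the miRNA arrays. A paired Student t-test, which the statistics section names without naming the arrays, called 6 members lower at an unadjusted p of at most 0.05 and 6 after Benjamini-Hochberg adjustment. Leaving out 1 array at a time kept the count of members called lower at 7 to 7, and the ratio of miR-424-5p to miR-503-5p ran from -0.23 to 0.059. Leaving out DMSO replicates 2 and 3, or 1 and 4, chosen after seeing the data, left 6. With the replicate number as a block, 7 members were called lower and 308 miRNAs were called in place of 322. Same-numbered arrays did not deviate together (r = 0.24, 0.38, -0.46 and -0.46), so the numbers were not taken to pair the samples.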
